A study of Homo sapiens with 8 samples.

Results

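The mucins read here are the membrane-bound MUC1, MUC4, MUC13, MUC15, MUC16 and MUC20 and the secreted MUC2, MUC5AC, MUC5B and MUC6. They were found by gene name: every array probe whose transcript accession maps to 1 of these 10 genes was taken. This gave 15 of the 41000 probes, for 8 of the 10 genes. MUC4 had 4 probes, MUC2 had 3, MUC6 and MUC20 had 2 each, and MUC1, MUC13, MUC15 and MUC16 had 1 each. No probe was matched to MUC5AC or MUC5B.

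Mucins are large glycoproteins whose extracellular part is densely covered with O-linked sugars. Membrane-bound mucins carry a transmembrane segment and a short cytoplasmic tail, and several of them take part in signalling, MUC4 through the receptor tyrosine kinase ErbB2. Secreted mucins of the gel-forming kind polymerize into mucus. Normal pancreatic duct cells make little or no MUC4, and the gene is turned on in pancreatic adenocarcinoma and its precursor lesions.

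The arrays compared CAPAN-2, an established human pancreatic adenocarcinoma cell line, after stable silencing of ErbB2 or of MUC4, to ask which genes each partner controls. ErbB2-KD cells were transfected with a puromycin plasmid (pGeneClip) encoding an shRNA to ErbB2, and their NT controls received the empty plasmid. MUC4-KD cells were infected with a pRetroSuper retrovirus encoding an shRNA to MUC4 and selected with G418, and their Mock controls received the empty retroviral vector. By the methods each array set 1 knockdown clone, isolated by limiting dilution, against RNA pooled from 4 control clones, so that every knockdown sample stands for a single clone and the control for 1 pool. The ErbB2-KD clones EV7, EV12, EV9 and EV18 are replicates 1 to 4. The labels do not name the MUC4-KD clones, and whether 2 of those arrays share a clone is not given there. All cells were CAPAN-2, and each experiment held 4 two-channel Agilent arrays, with the knockdown RNA in Cy5 on 2 of them and in Cy3 on the other two. Since each pool counts as 1 control sample, no test holds the spread between control clones.

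Values are log2 ratios of the RNA labelled as knockdown over the RNA labelled as control, after background correction and loess normalization, and are given per array. A difference was called at an adjusted p (limma, Benjamini-Hochberg over all probes tested) under 0.05. A probe entered the test when at least 1 of the RNAs gave a signal well above background on each of the 4 arrays. By channel, the probes well above background made up 56.7% to 74.2%, and no spot was saturated. The number of arrays limits the precision. Of the epithelial markers of the duct, EPCAM, CDH1, KRT7, KRT8, KRT18 and KRT19 were above background in all 16 channels and SOX9 in 15. Among 5 fibroblast genes with a probe none was above background in all 16 channels, with COL3A1 above it in 7, COL1A2 and LUM in 1 each, and DCN and PDGFRB in none. The ERBB2 probe A_23_P89249 averaged -0.40 ± 0.12 (SD, n = 4) in the ErbB2-KD clones. All 4 clones lay below the NT pool, and the limma adjusted p was 0.145. A second ERBB2 probe, A_24_P284420, averaged 0.04 in both experiments.

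The direction of the MUC4-KD experiment is not settled. By the mean of each of its 4 probes, MUC4, the gene that was silenced, was brighter in the RNA with the MUC4-KD label. Only A_24_P208825 and A_24_P239183 passed the test, and both were above 0 on all 4 arrays. The brightest probe, A_24_P239176, averaged 0.27 and A_24_P239177 averaged 0.41, each just below 0 on array 4. The brighter signal with the MUC4-KD label is opposite to the direction the study gives for MUC4 in these cells. The dyes were taken from the labels, and the deposited table of ratios runs the same way as the labels. For SMAD3 and TGFBR2, both higher as labelled, the study likewise gives the opposite direction in MUC4-deficient cells. MUC1 and ERBB3, which the study read as protein and gives as lower, have negative mean ratios as labelled. The study also gives ErbB2 protein as lower in MUC4-KD cells. The brighter ERBB2 probe read 0.16, 0.42, -0.53 and -1.02 on arrays 1 to 4 as labelled, a mean of -0.24 (limma adjusted p of 0.498). On these arrays ERBB3 averaged -0.64 ± 0.41 as labelled (SD, n = 4), below 0 on all 4 arrays, with a limma adjusted p of 0.051, and MUC1 did not share a direction between arrays. Each ratio of this experiment is printed as labelled, and whether the labels of the 2 RNAs were exchanged was not tested. Over 22995 probes, pairs of arrays from the 2 experiments correlated between -0.157 and 0.253. These are descriptions, and their bearing on the labels was not tested.

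The MUC4 probes carried the only calls among the mucins, and of the mucins with 1 probe only MUC1 was tested in ErbB2-KD. The promoters of MUC4 and MUC1 are therefore shown. Each is the 250 bases before the transcription start in RefSeq on GRCh38.p14, on the minus strand, written 5′ to 3′. Windows were found for MUC1, MUC2, MUC4, MUC13 and MUC16. Capitals mark matches on either strand. The motifs marked are the GAS element of STAT factors, TTCNNNGAA, the GC box, spelled GGGCGG, and the TATA box, spelled TATAAA. No match overlaps a match of another motif. The SMAD palindrome GTCTAGAC, the E box CACGTG and the ETS element CCGGAAGT were searched in the same way and had no match in the 5 genes.
MUC4, chr3:195811930-195812179: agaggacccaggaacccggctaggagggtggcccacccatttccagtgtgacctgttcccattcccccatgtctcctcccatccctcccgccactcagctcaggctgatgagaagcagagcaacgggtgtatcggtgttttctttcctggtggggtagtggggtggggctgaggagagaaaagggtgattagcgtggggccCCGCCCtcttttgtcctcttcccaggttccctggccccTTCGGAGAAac
MUC1, chr1:155192916-155193165: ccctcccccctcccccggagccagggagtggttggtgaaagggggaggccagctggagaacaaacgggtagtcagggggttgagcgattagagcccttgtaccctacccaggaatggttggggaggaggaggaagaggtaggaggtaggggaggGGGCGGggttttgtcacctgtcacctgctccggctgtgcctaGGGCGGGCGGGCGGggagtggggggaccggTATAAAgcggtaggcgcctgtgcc
The MUC4 window holds 1 GAS match, at bases 240 to 248 of the window, and 1 GC box. The MUC1 window holds 4 GC box matches, of which 3 overlap each other, and a TATA box at bases 227 to 232. Among 34788 windows of the same length, 6.57% hold the GAS letters, 42.6% the GC box and 10.8% the TATA box. In the same assembly MUC20 and MUC4 are neighbouring coding genes on chromosome 3, and MUC2, MUC5AC and MUC5B follow each other on chromosome 11, with MUC6 nearby. Where in each transcript the 15 probes lie was not analysed here.

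In the RNA labelled MUC4-KD, MUC4 was higher by 2 of its 4 probes, and these were the only mucin calls, 2 of 11 tested probes (18.2%), against 20.5% of all probes tested in this experiment and 12.0% that were higher. The share among the mucins is thus near that of all probes. As in any bulk RNA, fewer expressing cells and less RNA per cell cannot be told apart. Probe A_24_P208825 read 1.71, 2.34, 2.21 and 1.08 on arrays 1 to 4. All 4 arrays lay above 0. The mean was 1.84 ± 0.57 (SD, n = 4), or 3.57-fold higher, with a limma adjusted p of 0.008. Probe A_24_P239183 read 1.71, 1.96, 1.58 and 0.10, so array 4 lay near 0 and the other 3 close together. Its mean was 1.34 ± 0.84 (SD, n = 4), or 2.53-fold higher, with a limma adjusted p of 0.035.

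The other 2 MUC4 probes did not pass in this experiment. Probe A_24_P239176, the one with the highest mean signal, read 0.47, 0.39, 0.28 and -0.05, with a mean of 0.27 ± 0.23 (SD, n = 4) and a limma adjusted p of 0.167. Probe A_24_P239177 read 0.71, 0.56, 0.41 and -0.04, with a mean of 0.41 ± 0.33 (SD, n = 4) and a limma adjusted p of 0.098. After loess, array 4 was the lowest of the arrays for all 4 probes. By the log ratios of Agilent's Feature Extraction software, A_24_P208825 read 1.88, 2.57, 2.425 and 2.31, so that array 1 was its lowest. By those ratios array 4 stayed the lowest for the other MUC4 probes. Read as 1 gene, by the mean of its probes, MUC4 was 0.96 with a limma adjusted p of 0.020.

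These calls depended on single arrays and on the normalization. Without array 4, all 4 MUC4 probes passed, with log2 ratios between 0.38 and 2.09. Without array 1 or without array 2, A_24_P208825 passed and A_24_P239183 did not, with limma adjusted p of 0.133 and 0.121. Without array 3 neither passed, A_24_P208825 at a limma adjusted p of 0.074 and A_24_P239183 at 0.171. With median centring in place of loess neither passed (limma adjusted p of 0.304 and 0.334), nor by the methods' t-test (adjusted p of 0.109 and 0.180). Without the filter on dim probes only A_24_P208825 passed.

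**Figure D1:**
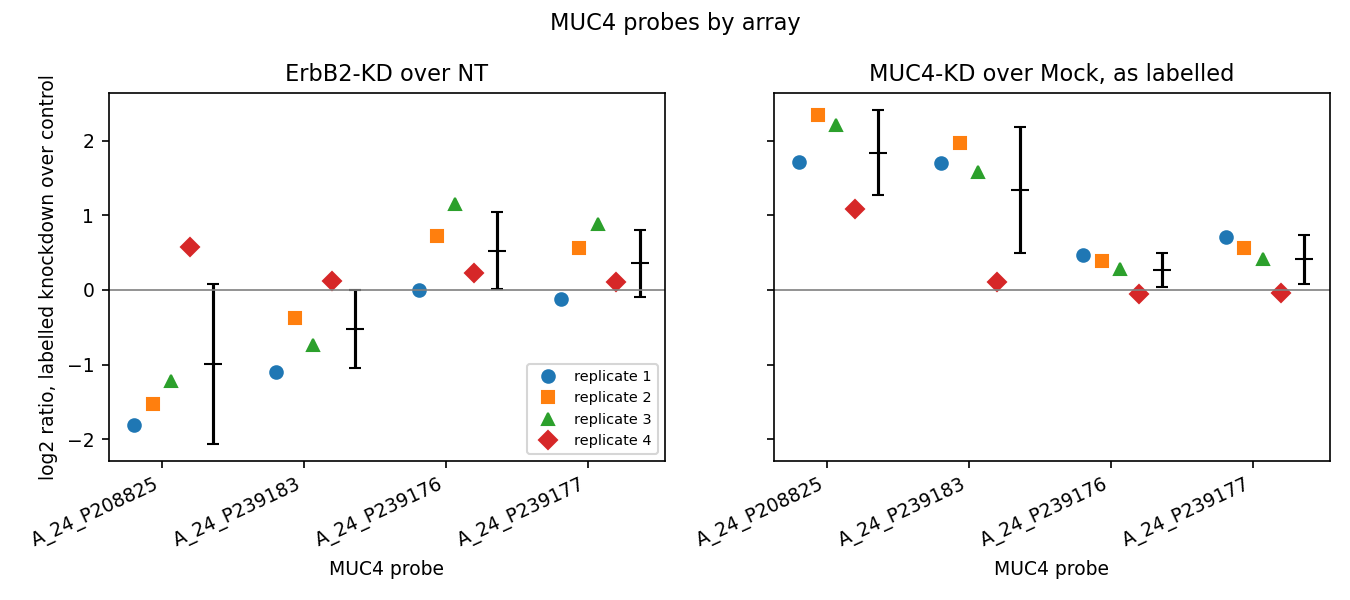
Log2 ratio of the 4 MUC4 probes on each array, ErbB2-KD over NT (left) and RNA labelled MUC4-KD relative to RNA labelled Mock (right), with the mean ± SD over 4 arrays as a bar beside the points. On the right A_24_P208825 averages 1.84 and A_24_P239183 1.34, while A_24_P239176 and A_24_P239177 stay at or below 0.71; on the left the first 2 lie mostly below 0 and the other two mostly above.

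In ErbB2-KD, none of the 10 tested mucin probes passed by limma, where 1.43% of all tested probes did. At an unadjusted p under 0.05 there were 4 of 10 (1 higher and 3 lower), against 18.0% of all tested probes, and the methods' t-test after Benjamini-Hochberg adjustment gave 0. The 3 lower probes were those of MUC1 and MUC4 A_24_P208825 and A_24_P239183, and the 1 higher was MUC4 A_24_P239176. The count thus covers only MUC1 and MUC4, with MUC4 on both sides of 0. For MUC4 the 4 probes split into the same pairs, now on opposite sides of 0. A_24_P208825 read -1.81, -1.53, -1.21 and 0.57 in clones EV7, EV12, EV9 and EV18, a mean of -0.996 ± 1.07 (SD, n = 4) with a limma adjusted p of 0.259. A_24_P239183 read -1.10, -0.37, -0.74 and 0.12, a mean of -0.52 ± 0.52 (SD, n = 4) with a limma adjusted p of 0.266. For both, 3 clones lay below the NT pool and EV18 above it.

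The other pair was at or above the NT pool in most clones. A_24_P239176 read 0.00, 0.73, 1.15 and 0.22, a mean of 0.52 ± 0.51 (SD, n = 4) with a limma adjusted p of 0.261. A_24_P239177 read -0.12, 0.56, 0.88 and 0.11, a mean of 0.36 ± 0.45 (SD, n = 4) with a limma adjusted p of 0.383. Clone EV9 was the highest for both of these probes, and EV7, the lowest clone by the first pair, was also the lowest here. Since the 4 probes carry the same accession and disagree in sign, the mean over them, -0.16 with a limma adjusted p of 0.701, does not stand for any of them.

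The MUC4 levels show which RNA varied. A level is the normalized log2 intensity of 1 channel, and is compared only within a probe. For A_24_P208825 the NT pool read 11.48, 11.01, 11.32 and 11.07, and the ErbB2-KD clones 9.67, 9.48, 10.11 and 11.64. The clones EV7, EV12 and EV9 lay below the whole NT range, and EV18 above it. In the other experiment the RNA labelled MUC4-KD read 11.08, 11.27, 10.86 and 10.92 and the RNA labelled Mock 9.37, 8.93, 8.65 and 9.84, without overlap. Against the NT range of 11.01 to 11.48, the RNA labelled MUC4-KD lay inside it on arrays 1 and 2 and below it on arrays 3 and 4, a comparison across experiments that was not tested.

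For A_24_P239183 the RNA labelled MUC4-KD held between 8.63 and 8.81 and the RNA labelled Mock between 6.81 and 8.53, with array 4 the highest of the latter. For the brightest probe, A_24_P239176, the RNA labelled MUC4-KD lay between 10.64 and 11.04 and the RNA labelled Mock between 10.44 and 10.70, which overlap. The NT pool lay between 10.53 and 10.85 for this probe and the ErbB2-KD clones between 10.53 and 11.74.

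**Figure D2:**
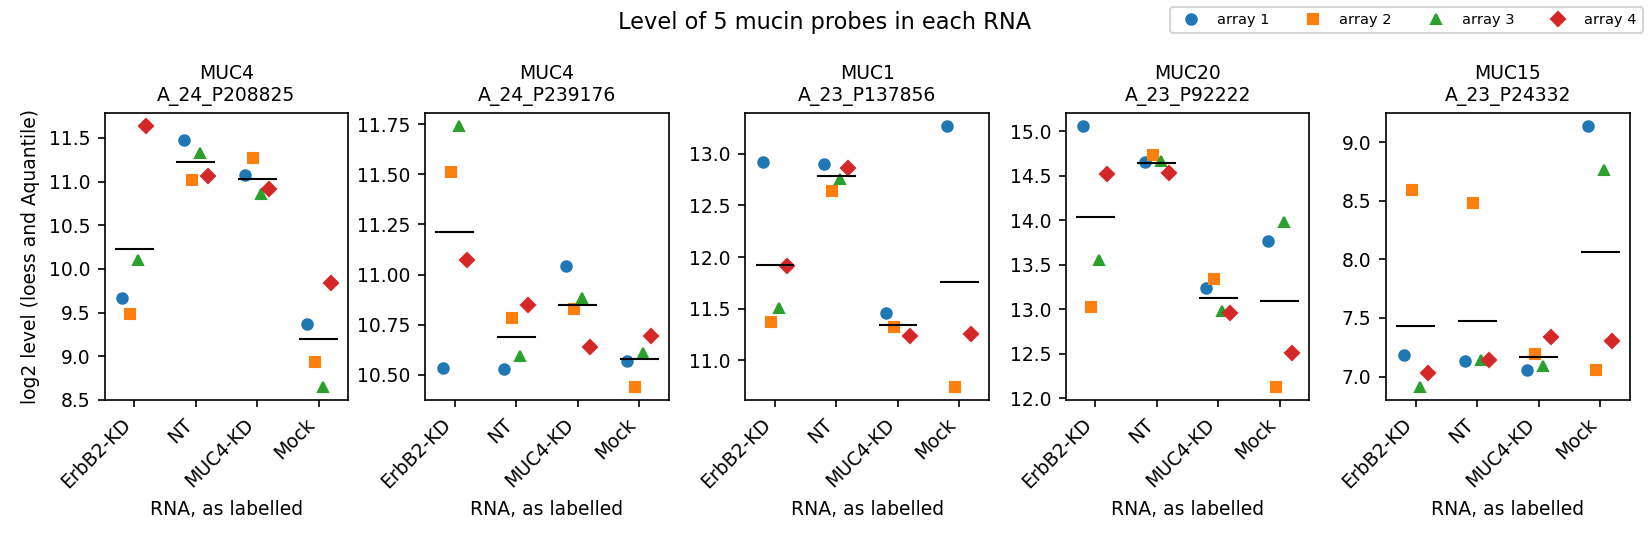
Normalized log2 level of 5 mucin probes in each RNA as labelled; each point is 1 array, the line is the mean, and each panel has its own axis. For MUC4 A_24_P208825 the RNA labelled Mock (8.65 to 9.84) lies below the RNA labelled MUC4-KD (10.86 to 11.27), and for MUC1 and MUC20 the points are tight in NT and in the RNA labelled MUC4-KD and spread in the other 2 RNAs.

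MUC1 is a membrane-bound mucin of most glandular epithelia whose tail binds β-catenin and receptor kinases. In ErbB2-KD it read 0.01, -1.27, -1.25 and -0.95, so that 3 clones lay below the NT pool and EV7 at it. The mean was -0.86 ± 0.60 (SD, n = 4; limma SE 0.235). Its limma adjusted p was 0.144, at an unadjusted p of 0.010. In the RNA labelled MUC4-KD it read -1.81 on array 1, 0.58 on array 2 and -0.02 on array 4. The spot of array 3 was flagged as a non-uniform outlier and dropped, and Feature Extraction gives -1.85 for it. The mean over 3 arrays was -0.42 ± 1.25 (SD, n = 3), with a limma adjusted p of 0.541. The arrays did not share a direction, and without array 1 the mean was 0.28. With the outlier spot kept it was -0.74, and with arrays 1 and 3 and arrays 2 and 4 averaged first it was -0.77. In the latter setting array 1 stood alone for its pair, since the spot of array 3 was dropped. Neither mean passed.

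MUC20, which binds the MET receptor and lies beside MUC4, was read by 2 probes that ordered the arrays alike within each experiment, apart from EV12 and EV9. In ErbB2-KD A_23_P92222, the brighter, read 0.41, -1.70, -1.11 and -0.01. EV7 lay above the NT pool, EV12 and EV9 below it, and EV18 at it. The mean was -0.60 ± 0.97 (SD, n = 4), with a limma adjusted p of 0.437. A_23_P92225 read 0.40, -0.83, -0.87 and -0.07, with a limma adjusted p of 0.515. EV7 was thus the highest clone for MUC1 and for both MUC20 probes.

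In the RNA labelled MUC4-KD, A_23_P92222 read -0.52, 1.21, -0.99 and 0.44, a mean of 0.03 ± 0.99 (SD, n = 4) with a limma adjusted p of 0.953. A_23_P92225 read -0.80, 0.60, -0.94 and 0.04, a mean of -0.27 ± 0.72 (SD, n = 4) with a limma adjusted p of 0.482. Arrays 1 and 3 were below 0 and arrays 2 and 4 above it for both probes.

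MUC15, a small membrane-bound mucin, split the same arrays. In the RNA labelled MUC4-KD it read -2.08, 0.14, -1.68 and 0.04, a mean of -0.90 ± 1.15 (SD, n = 4) with a limma adjusted p of 0.160. The RNA labelled Mock was above background on 2 of 4 arrays and the RNA labelled MUC4-KD on all 4. The RNA labelled Mock read 9.14, 7.05, 8.76 and 7.30 on the level scale, and the RNA labelled MUC4-KD 7.06, 7.19, 7.09 and 7.33. The gap on arrays 1 and 3 was thus in the RNA labelled Mock. In ErbB2-KD the probe was above background in 2 clones and in NT on 3 arrays and was not tested.

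Arrays 1 and 3 of the MUC4-KD experiment lie on 1 slide and have opposite dyes, and arrays 2 and 4 lie on 2 others. The part of slide or clone in the split of MUC15 and MUC20 was not tested.

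**Figure D3:**
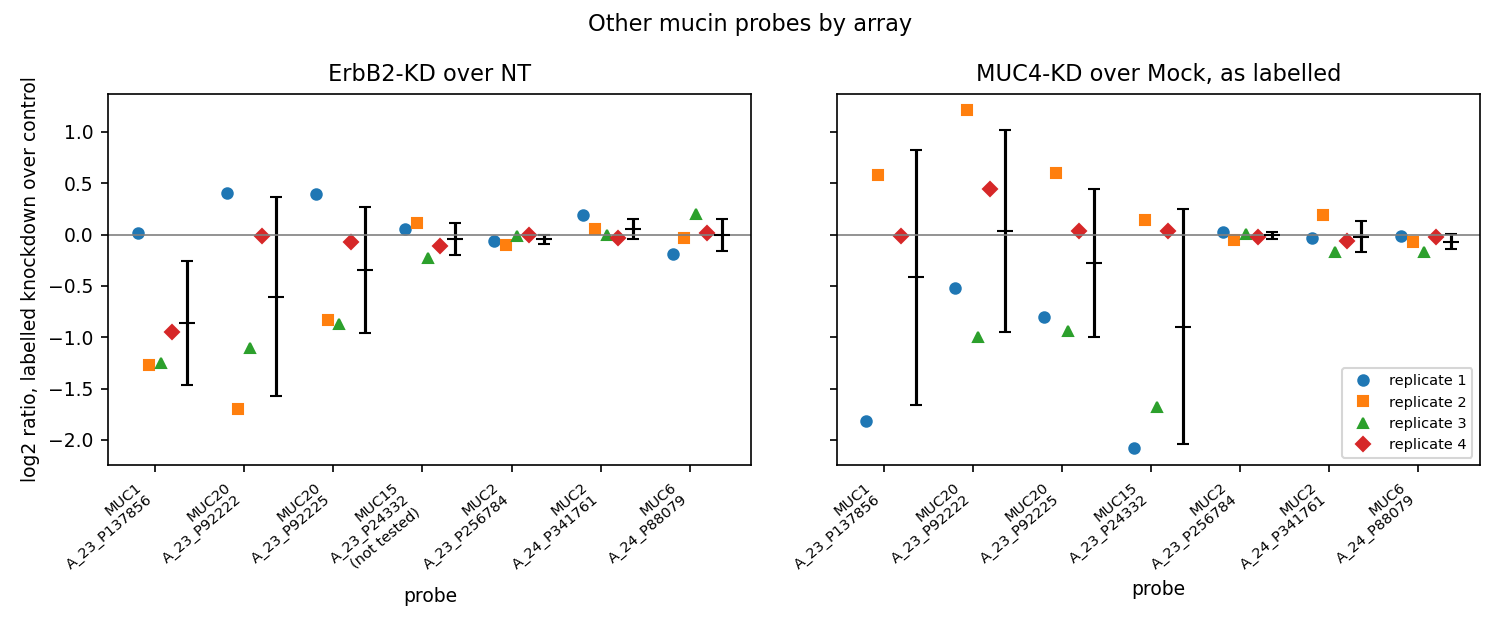
Log2 ratio of the 7 other mucin probes with signal on each array, ErbB2-KD over NT (left) and RNA labelled MUC4-KD relative to RNA labelled Mock (right), with the mean ± SD as a bar. MUC1, MUC20 and, on the right, MUC15 spread from about 1.21 to -2.08 over the arrays, while MUC2 and MUC6 stay within 0.20 of 0; MUC15 was not tested on the left.

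MUC2 and MUC6, the only secreted mucins with a probe, were dim, and none of their probes passed in either experiment. MUC5AC and MUC5B could not be read. MUC2, the gel-forming mucin of intestinal goblet cells, averaged 0.05 ± 0.10 in ErbB2-KD and -0.02 ± 0.15 in the RNA labelled MUC4-KD by its brightest probe, A_24_P341761 (SD, n = 4 each), with limma adjusted p of 0.846 and 0.911. Its probe A_23_P256784 averaged -0.05 ± 0.04 and -0.01 ± 0.04 (SD, n = 4 each). MUC6, the gel-forming mucin of deep gastric glands, averaged 0.00 ± 0.16 and -0.07 ± 0.07 by A_24_P88079 (SD, n = 4 each), with limma adjusted p of 0.992 and 0.634. All arrays of these 3 probes lay between -0.19 and 0.20 with the background offset of 50. By Feature Extraction's own log ratios, which carry no such offset, the values lay farther from 0 in the RNA labelled MUC4-KD. Their means were -0.27 for A_24_P341761, -0.37 for A_23_P256784 and -0.43 for MUC6, with array 4 the lowest at -0.998, -0.86 and -1.02, and none passed. The third MUC2 probe, A_24_P84657, and the second of MUC6, A_24_P752518, were not above background in any of the 16 channels. On ErbB2-KD array 2 both channels of A_24_P341761 were high, at 9.09 and 9.04 against at most 7.85 on the other ErbB2-KD arrays. That array also had the highest median signal, 593 in Cy5 against at most 201 on the others.

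MUC13, a membrane-bound mucin of the gut, was not above background in any of the 16 channels. MUC16, the membrane-bound mucin that carries the CA125 antigen, was above it in 1 channel, that of the ErbB2-KD clone EV9. There its level was 7.53, against 6.73 in the NT pool on the same array. The levels in the 3 other clones were 6.72, 6.81 and 6.96, and those in the RNA labelled MUC4-KD were 6.68 to 6.85. No ratio was tested for MUC13 or MUC16.

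The difference between the experiments was tested over 8 arrays as ErbB2-KD minus MUC4-KD, as labelled. It passed for 2 of 11 mucin probes (18.2%), both lower in ErbB2-KD, where 9.91% of all tested probes passed and 6.49% were lower. MUC4 A_24_P208825 differed by -2.83 (limma adjusted p = 0.013) and A_24_P239183 by -1.86 (limma adjusted p = 0.027). Within the 3 slides, each of which held arrays of both experiments, the difference of A_24_P208825 was -3.85, -2.62 and -1.39 and that of A_24_P239183 was -2.88, -0.48 and -1.52, with 1 to 2 arrays a side and no test. The other 9 probes did not pass. Both calls end with the MUC4-KD sign turned, when the first difference is 0.84 (limma adjusted p = 0.267) and the second 0.81 (limma adjusted p = 0.197).

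Without MUC4-KD array 3 neither difference passed. Without MUC4-KD array 1 or 2, or ErbB2-KD array 1 or 3, 1 of the 2 passed. With the replicate number as a block none passed, at limma adjusted p of 0.059 and 0.089. With median centring in place of loess the limma adjusted p were 0.073 and 0.074, and by the methods' t-test the adjusted p were 0.072 and 0.099. Without the filter on dim probes only A_24_P208825 passed.

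The spread of the levels over arrays was unlike between the 2 experiments. Each experiment set 4 clones against 1 pool. In ErbB2-KD the clones varied more than the NT pool: the SD over 4 arrays was 0.70 against 0.12 for MUC1, 0.98 against 0.22 for MUC4 A_24_P208825 and 0.92 against 0.09 for MUC20 A_23_P92222. In the other experiment the RNA labelled as the pool varied more. The SD was 0.11 in the RNA labelled MUC4-KD against 1.33 in the RNA labelled Mock for MUC1 (3 arrays), 0.19 against 0.52 for MUC4 A_24_P208825, 0.08 against 0.77 for MUC4 A_24_P239183, 0.13 against 1.04 for MUC15 and 0.19 against 0.91 for MUC20 A_23_P92222. Of the 11 probes tested there, 3 went the other way: the brightest MUC4 probe, A_24_P239176, at 0.17 against 0.11, and MUC2 A_24_P341761 and A_23_P256784, at 0.20 against 0.16 and 0.057 against 0.049. In ErbB2-KD MUC6 A_24_P88079 did so, at 0.19 against 0.29.

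Over the 20347 probes above background in all 16 channels the same order held for the median. It was 0.35 in the ErbB2-KD clones and 0.159 in NT, and 0.156 in the RNA labelled MUC4-KD and 0.256 in the RNA labelled Mock, where the RNA labelled Mock had the higher SD for 72.9% of probes. Without loess, with each channel centred on its median, these medians were 0.507 and 0.613 for ErbB2-KD and NT, which turns their order, and 0.337 and 1.23 for the RNA labelled MUC4-KD and Mock. These spreads are descriptions without a test.

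**Figure D4:**
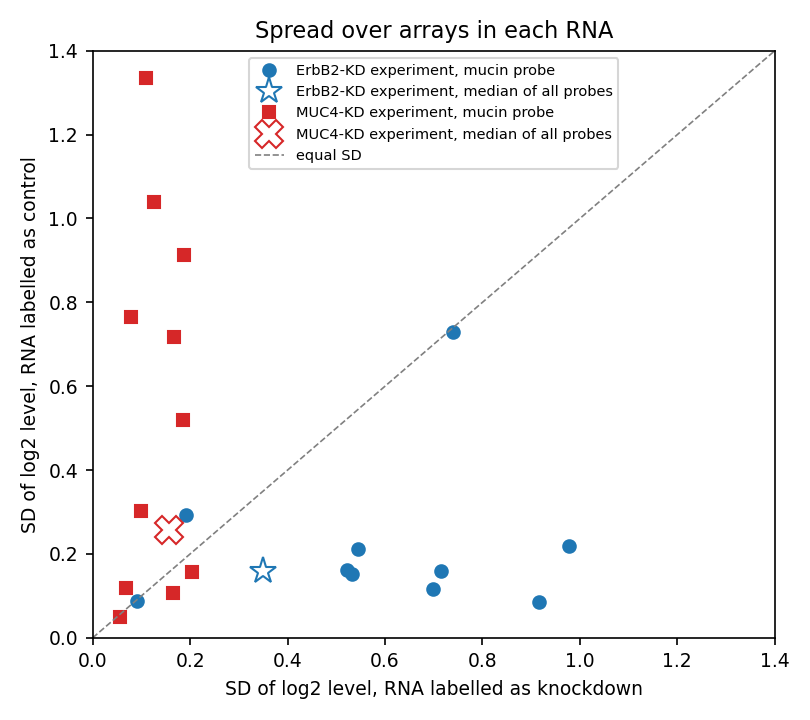
SD over arrays of the log2 level of each tested mucin probe in the RNA labelled as knockdown (x) and as control (y), with the median over 20347 probes of each experiment as an open symbol and equal SD as a dashed line. Points of ErbB2-KD lie mostly below the line, those of MUC4-KD mostly above it.

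Genes around the mucins were read from 5 lists, each gene by its brightest tested probe. Shares of a list are by gene, and those over all tested probes are by probe. In ErbB2-KD 1.43% of all tested probes passed by limma and 18.0% had an unadjusted p under 0.05. The first list held other mucins and sialomucins. None of 5 passed in ErbB2-KD by limma, nor at an unadjusted p under 0.05 (median of the list 0.19 against -0.01 over all tested probes). Of the same 5, 1 rose and 1 fell in MUC4-KD as labelled (40%, against 20.5% of all tested probes; median -0.22 against 0.01). Counted by probe, 2 of 7 passed. PODXL, the sialomucin podocalyxin, was 1.35 ± 0.22, and OVGP1, a secreted oviduct glycoprotein, was -0.76 ± 0.34, each in 1 direction on 4 of 4 arrays (limma adjusted p of 0.004 and 0.027).

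Regulators linked to MUC4 transcription gave none of 16 in ErbB2-KD by limma, and 5 of 16 at an unadjusted p under 0.05, where 18.0% of all tested probes stood (median of the list -0.32). TGFBR2, the type II receptor of TGF-β, came nearest to the threshold. It read 1.04, 0.64, 0.59 and 1.04 in ErbB2-KD, a mean of 0.83 ± 0.24 (SD, n = 4) with a limma adjusted p of 0.050447. All 4 clones lay above the NT pool.

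Of these 16 regulators, 5 rose and none fell in MUC4-KD as labelled (31.2%, against 20.5% of all tested probes called and 12.0% higher; median of the list 0.29). Counted by probe, as the 20.5% is, 5 of 29 passed. TGFBR2 was 2.34 ± 0.20 and SMAD3, an effector of TGF-β signalling, 2.01 ± 0.26 (SD, n = 4 each), with limma adjusted p of 0.002 for both. Both were at least 1.70 on all 4 arrays. IRF1, a transcription factor of the interferon response, read 0.57, 0.68, 0.60 and 0.97, a mean of 0.70 ± 0.18 (SD, n = 4) with a limma adjusted p of 0.017. In ErbB2-KD SMAD3 was -0.53 ± 0.93 and IRF1 -0.80 ± 1.31 (SD, n = 4 each), with limma adjusted p of 0.482 and 0.436.

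Of the genes for mucin partners and for sheddases, none of 12 passed in ErbB2-KD by limma (median of the list -0.06). At an unadjusted p under 0.05 there were 5 of 12, against 18.0% of all tested probes. EGFR and the silenced ERBB2 were lower, and ADAM9, LGALS3 and MSLN were higher. MSLN entered the test through the ErbB2-KD RNA, in which it is high, since the NT RNA was above background on 2 of 4 arrays. As labelled, 2 of 12 genes of the list were higher and none lower in MUC4-KD (16.7%, against 20.5% of all tested probes called and 12.0% higher; median 0.01). Counted by probe, 2 of 19 passed. EGFR was 1.45 ± 0.25 and ADAM9, a metalloprotease of the cell surface, 0.92 ± 0.24 (SD, n = 4 each), with limma adjusted p of 0.004 and 0.012.

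The mucous secretory genes gave none of 13 in ErbB2-KD by limma (median of the list -0.04). At an unadjusted p under 0.05 there were 3 of 13, against 18.0% of all tested probes. In the RNA labelled MUC4-KD 3 of 15 passed (20%, near the 20.5% of all tested probes, with a median of -0.11). Counted by probe, 3 of 18 passed there. TFF2, a trefoil peptide secreted with mucus, read 2.26, 2.02, 2.00 and 0.14, a mean of 1.61 ± 0.98 (limma adjusted p = 0.033). It entered the test through the RNA labelled MUC4-KD, where it was above background on all 4 arrays, against 3 in the RNA labelled Mock, and was not tested in ErbB2-KD. Among the genes above background in both RNAs on every array 2 of 11 passed. GATA6, a transcription factor of foregut epithelium, was 1.46 ± 0.51 (limma adjusted p = 0.011) and XBP1, which expands the secretory pathway, -0.70 ± 0.22 (limma adjusted p = 0.020).

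The enzymes that start and extend mucin O-glycans gave none of 12 in ErbB2-KD by limma (median of the list 0.07). An unadjusted p under 0.05 was reached by 4 of 12, against 18.0% of all tested probes. Counted by probe, 3 of 18 passed in MUC4-KD. As labelled, 3 of 15 genes were higher there and none lower (20%, near the 20.5% of all tested probes called, with 12.0% higher and a list median of 0.22). These were all GALNT enzymes, which attach the first sugar. GALNT14 read 2.79, 3.02, 2.57 and 0.26, GALNT18 read 2.72, 3.07, 2.33 and 0.32, and GALNT3 averaged 0.75 ± 0.26. Their limma adjusted p were 0.029, 0.028 and 0.021. Array 4 was the lowest for all 3 after loess, as for the MUC4 probes. The RNA labelled Mock was above background for GALNT14 on 2 of 4 arrays and for GALNT18 on 3. These 2 therefore entered the test through the RNA in which they are high, and GALNT3 is the only call among the genes above background in both RNAs on every array (1 of 11).

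**Figure D5:**
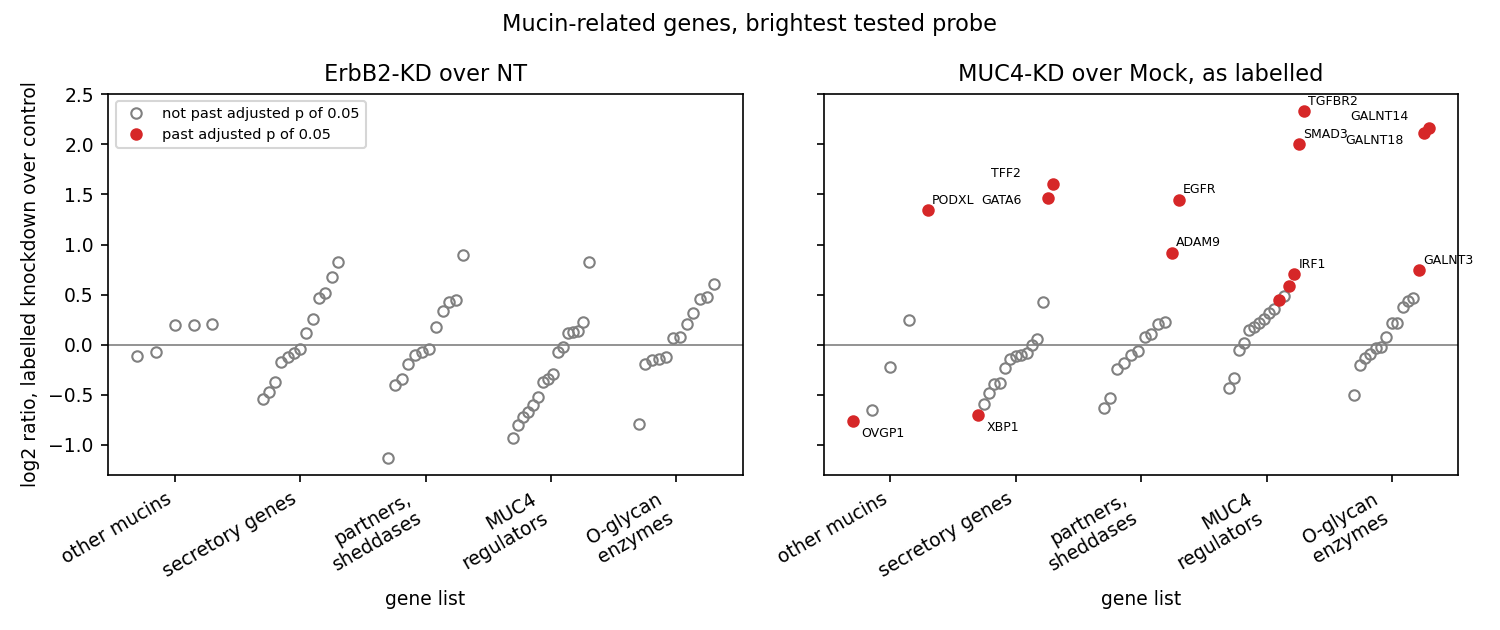
Log2 ratio of each gene of the 5 mucin-related lists, ErbB2-KD over NT (left) and RNA labelled MUC4-KD relative to RNA labelled Mock (right); a point is a gene's mean over 4 arrays and filled points passed an adjusted p of 0.05. No point is filled on the left, and 15 are filled on the right, with TGFBR2 at 2.34 the highest of them and OVGP1 at -0.76 the lowest.

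The pattern of MUC4 by its brightest probe was set beside that of all named probes by Pearson correlation of log2 ratios over the 8 arrays. The 5 closest other symbols, among the named ones of 22995 probes, were RAMP1 (0.971), SSBP3 (0.97), SERPINB2 (0.958), NUDT14 (0.953) and HDHD5 (0.946). Probes without a symbol were passed over. The MUC4 probe used, A_24_P239176, was called in neither experiment. Its correlation with the called MUC4 probes was -0.31 for A_24_P208825 and -0.12 for A_24_P239183, so the 5 do not follow the called probes' pattern. For MUC1, over the 7 arrays with a value and the named ones of 23003 probes, the 5 closest were PAPOLG (0.968), CLHC1 (0.967), TBC1D8 (0.961), ASPRV1 (0.961) and PELI1 (0.96). These are the top of very many values over few arrays that share 2 control pools, and are given without a test.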

How the data were processed

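RNA of CAPAN-2 clones was hybridised against pooled control RNA on 8 Agilent 2-colour arrays, 4 for each knockdown. From their scans the authors deposited Feature Extraction output, giving the median pixel intensity of each spot and its background in both channels (version 10.5 per the labels, 10.5.1.1 in the file headers). The deposited files also hold log10 ratios (Cy5 over Cy3), for which Feature Extraction subtracted background and normalized the dyes. The deposited series table equals these log10 ratios turned to labelled knockdown over control within 4.993e-06, with a median of 0 for every array, so its scale, centring and direction are known and it was not used apart. No fold changes of the authors were used.

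The background correction was normexp (offset 50) in limma 3.58.1 under R 4.3.3. Control and outlier spots had no weight in the loess normalization of each array, outlier spots were then dropped, and spots of 1 probe were averaged (43376 spots, 41000 probes). Ratios were turned by the dyes of the labels. Probes above background by the flags of Feature Extraction numbered 23869 in ErbB2-KD, 25047 in MUC4-KD and 25835 for the difference. Mean log2 ratios were set against 0, and the experiments against each other over 8 arrays, by lmFit and eBayes, with Benjamini-Hochberg adjustment over all these probes. Channel levels followed Aquantile scaling and were not tested. The precision is limited by the 4 arrays of each experiment.

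Accessions were matched to RefSeq symbols (GRCh38.p14) for 25398 probes, and 15602 stayed unnamed. The mucins, the 5 gene lists and the tests were chosen with earlier results of these data known. Every mucin probe is named, with up to 3 genes a list and experiment that passed with 1 direction on 4 of 4 arrays, and the 5 symbols closest to MUC4 and to MUC1. The 5 mucin partners and sheddases at an unadjusted p under 0.05 in ErbB2-KD are named as well. Of the lists, 1 regulator and 1 duct marker are not reported here and stay out of the counts. Fibroblast, haematopoietic, acinar and endocrine markers were also read. CD14, CD68 and CHGA were above background in all 16 channels, PTPRC and LYZ in 1, CD3E in 8, INS in 5, GCG in 0, PRSS1 in 6 and CPA1 in 4. Promoter windows were searched with Python 3.11.15.

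On simulated data, 200 probes were changed to check these steps. With a log2 change of 1 they recovered 26.5% in ErbB2-KD (23869 probes), 39.5% in MUC4-KD (25047) and 40.5% for the difference (25835). With a change of 2 they recovered 77%, 90.5% and 85%. Of the probes called, 3.64%, 7.06% and 7.95% were false at a change of 1, and 5.52%, 3.72% and 2.3% at a change of 2. Alternatives were Feature Extraction's own ratios, an offset of 10, median centring, the filters, the slide as a block, a dye term, an intensity trend, the methods' t-test, 1 fit over 8 arrays, averaged array pairs, the mean over probes, the replicate block, the turned sign and leaving out each array. Keeping the outlier spots was added after the data were seen.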

Additional observations from a re-analysis of the deposited data

Results flagged for a closer look

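For 2 MUC4 probes the effect differed between the experiments by the test of the difference over 8 arrays. A_24_P208825 differed by -2.83, ErbB2-KD minus MUC4-KD as labelled, from means of -0.996 and 1.84. For A_24_P239183 the difference was -1.86, from means of -0.52 and 1.34. The other 2 MUC4 probes differed by 0.25 and -0.05, with limma adjusted p of 0.546 and 0.910. All these values rest on the labelled direction of MUC4-KD.

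MUC16, which was not tested in either experiment, was above background in the channel of clone EV9 of ErbB2-KD and not in the NT channel of that array, with a log2 ratio of 0.81. The ratio by Feature Extraction was 3.61. It was not above background in any of the other 15 channels.

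None of the 20 sets of 4 array values tested held a lone outlying array by Dixon's criterion, which chance alone would give in about 1 of 20 sets.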

How the results depend on the processing

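In ErbB2-KD the count of mucin probes called stayed at 0 in every alternative with adjustment and when any array was left out. It was 4, all of MUC1 or MUC4, at an unadjusted p under 0.05. For MUC4-KD as labelled the count of 2 became 0 with median centring in place of loess and with the methods' t-test, 1 without a filter on dim probes, and 0 (without array 3) to 4 (without array 4) when single arrays were left out. For the difference it became 0 with median centring, 0 with the methods' t-test, 1 without the filter, 0 with the sign of MUC4-KD turned, and 0 to 2 with single arrays left out. Over all probes, the 342 calls of ErbB2-KD became 26 with median centring, 50 without the filter, 190 with the dye term, 0 with the intensity trend or the methods' t-test, 1095 with the slide as a block, 1121 in 1 fit over 8 arrays and 0 to 477 with arrays left out. The 5131 of MUC4-KD became 1 with median centring, 2930 without the filter, 2754 with the trend, 106 by the methods' t-test and 155 to 9622 with arrays left out. The 2559 of the difference became 108 with median centring, 4076 by the log ratios of Feature Extraction, 546 by the methods' t-test, 4433 with the sign turned and 634 to 5189 with arrays left out. The ranges over alternatives were 1.67 to 2.30 for A_24_P208825 and 1.13 to 2.19 for A_24_P239183 in MUC4-KD, called in 13 and 10 of 16. Averaging arrays 1 with 3 and 2 with 4 kept the count at 2.

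The replicate numbers are only names: deviations of same-numbered arrays correlated between -0.24 and -0.0485 over 22995 probes. With the replicate number as a block, the difference gave 0 mucin probes and 584 of all probes, against 2 and 2559 without it.

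Signs turned for probes near 0 or with split arrays. MUC6 in ErbB2-KD was 0.015 with the offset of 10, 0.047 by Feature Extraction and 0.024 with median centring, and -0.070 to 0.059 with arrays left out. The mean over probes turned MUC4 in ErbB2-KD to -0.16 and MUC20 in MUC4-KD to -0.12. In MUC4-KD, leaving out arrays gave -0.92 to 0.28 for MUC1, -0.36 to 0.38 for MUC20 A_23_P92222, -0.020 to 0.0075 for MUC2 A_23_P256784 (0.0040 with median centring) and -0.089 to 0.031 for MUC2 A_24_P341761. For the difference it gave -1.14 to 0.054 for MUC1, -0.23 to 0.11 for MUC4 A_24_P239177 and -0.32 to 0.22 for MUC20 A_23_P92225. The log ratios of Feature Extraction gave 0.079 for MUC4 A_24_P239177, -0.019 for MUC15 and 0.30 for MUC2 A_23_P256784. None of these passed, and the causes were not tested.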
